A study of Homo sapiens with 9 samples.

Results

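The 10 genes described here encode 7 S100 proteins (S100A4, S100A6, S100A10, S100A11, S100A13, S100A16 and S100B) and 3 annexins (ANXA1, ANXA2 and ANXA5), out of 19706 gene symbols in the deposited table. They were followed in 3 human neuroblastoma cell lines with 3 RNA libraries each, 9 in all: Kelly and BE(2)C, which carry an amplified MYCN oncogene, and SH-SY5Y, which does not. All cells were untreated and were collected before reaching full confluence, and their polyadenylated RNA was sequenced. BE(2)C and SH-SY5Y are cloned sublines of tumour-derived lines, so each group is a single line, and MYCN status and line identity cannot be told apart. The labels do not say whether the 3 libraries of a line were grown apart, and the spread that p-values rest on may therefore be technical. The set was chosen by measured levels: S100A6 and S100A11 are high in BE(2)C and near 0 in Kelly. The levels of those 2 genes, and all 10 genes between Kelly and BE(2)C, are therefore given as a description with no test.

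S100 proteins are small calcium sensors that bind calcium through a pair of EF-hand loops, usually as dimers, and then expose a surface that docks onto target proteins. Annexins bind calcium and the acidic phospholipids of the inner membrane leaflet at the same time. Several pairs work together: S100A10 with ANXA2 at the cell cortex, and S100A11 with ANXA1 in membrane repair and endosome traffic. In the neural crest lineage, S100B is a marker of Schwann cells and melanocytes, while S100A4, S100A6 and the annexins are common in mesenchymal cells. In bulk RNA, fewer cells with a transcript and less of it per cell cannot be told apart.

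Levels are given as scaled TPM, a length-adjusted share of transcripts recomputed over the gene entries alone and divided by a trimmed-mean factor for each library. TPM keeps no read depth, which is therefore unknown here, and no counting intervals can be given. ERCC spike-ins, synthetic RNAs added to each sample, took 83.7% to 90.6% of the deposited total. Mitochondrial genes took 24.5% to 35.3% of the gene total in BE(2)C and 16.5% to 19.8% in the other lines. The Kelly libraries stand apart by their spike-ins. Over 61 abundant spike-ins, the largest shift of a line's mean was 1.42 on the log2 scale for Kelly against SH-SY5Y, 1.24 for Kelly against BE(2)C and 0.181 for BE(2)C against SH-SY5Y. Of 16 genes that most cells use at high levels, HSPA8, LDHA and TUBB had a mean under 10 in at least 1 line, and TUBB, a tubulin gene, was listed at 0.275, 0 and 0.414 in SH-SY5Y. A value of 0 can thus be a failed estimate and is given here as listed. MYCN, the check of the labels, averaged 27.3 ± 1.01 in SH-SY5Y (SD, n = 3), against 5970 ± 77.6 in Kelly and 6050 ± 1088 in BE(2)C. Of 7 noradrenergic neuroblastoma markers, at least 6 reached a mean of 1 in each line, with a summed level of 3096 to 5675. The summed level of 5 leukocyte markers was 2.72 to 13.3 over the 9 libraries and that of 5 epithelial markers 2.23 to 11.7. CD3E, KRT5 and KRT14 were at 0 in every library, while LYZ, CD14, KRT19 and EPCAM were above 0 in every library.

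S100A6 (calcyclin) had the highest mean of the 10 genes in BE(2)C and in SH-SY5Y, but not in Kelly, where ANXA5, S100A13 and ANXA2 were above it. It stood at 369.5, 353 and 305 scaled TPM in the 3 BE(2)C libraries, at 64.2, 61.9 and 55.5 in SH-SY5Y and at 0.617, 0.801 and 1.39 in Kelly. The 3 lines did not overlap: every BE(2)C library was far above SH-SY5Y, and every Kelly library was near the bottom of the scale. The ratio of the means was 5.66 for BE(2)C to SH-SY5Y and 366 for BE(2)C to Kelly. Among the 13076 genes at 1 scaled TPM or more in at least 3 libraries, the BE(2)C mean of S100A6 was above 97.1%, its SH-SY5Y mean above 79.7% and its Kelly mean above 7.13%.

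S100A11, which binds annexins at membranes, separated BE(2)C from both other lines. It was at 151, 158 and 128 in BE(2)C. In SH-SY5Y it was at 0, 0.307 and 0.315. In Kelly it was at 0, 0.992 and 0.365. The low libraries of Kelly and SH-SY5Y overlapped, so these lines had no order for S100A11, whereas S100A6 placed SH-SY5Y clearly between the other lines. On the scale of log2(scaled TPM + 1), S100A11 was 6.93 above its SH-SY5Y level in BE(2)C, and S100A6 was 2.48 above. Values as deposited, where the spike-ins are part of the total, gave 4.12 and 1.83.

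**Figure D1:**
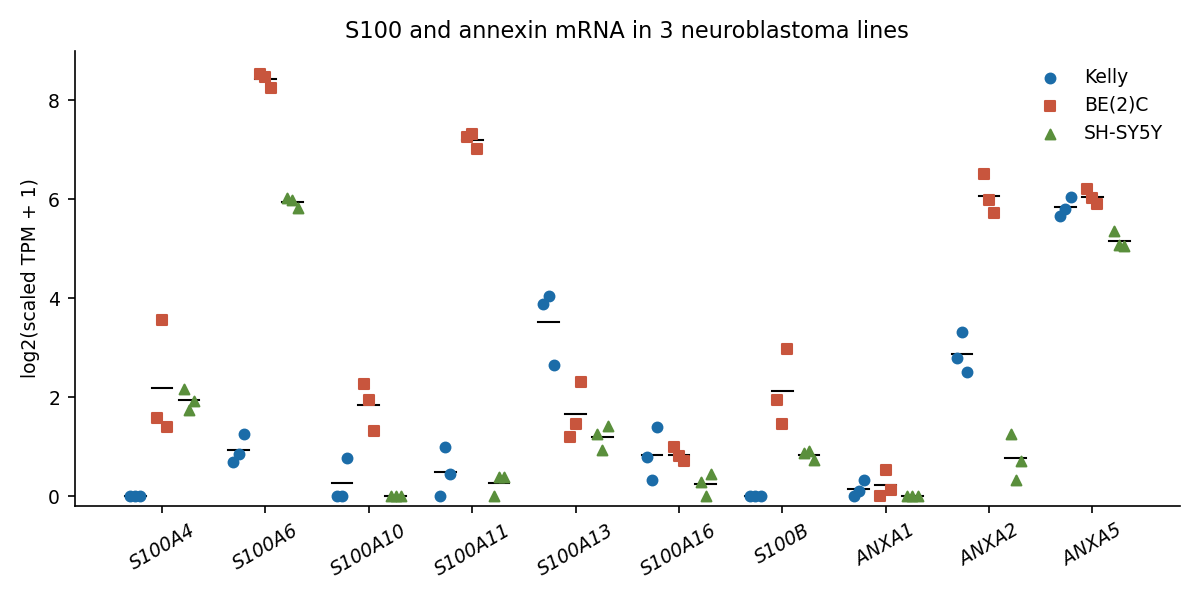
Level of each of the 10 genes in every library, as log2(scaled TPM + 1), with circles for Kelly, squares for BE(2)C, triangles for SH-SY5Y and a black line at the mean of the log values of each line (3 libraries). The 3 BE(2)C libraries of S100A6 lie between 305 and 369.5 scaled TPM and those of S100A11 between 128 and 158, far above both genes in Kelly, while ANXA5 is at 32.3 or more in every library and lowest in SH-SY5Y.

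ANXA2, a phospholipid-binding annexin of the cell cortex and of endosomes, was the annexin that differed most between lines. It was at 89.8, 62.5 and 51.6 in BE(2)C, at 5.95, 9.01 and 4.65 in Kelly. In SH-SY5Y it was at 1.39, 0.252 and 0.638. No lines overlapped, and the order was BE(2)C, Kelly, SH-SY5Y, unlike that of S100A6, which was lowest in Kelly. Against SH-SY5Y, ANXA2 was higher in BE(2)C by 5.31 ± 0.31 on the log2 scale (SE; limma, adjusted p = 8.59e-07) and in Kelly by 2.11 ± 0.31 (limma, adjusted p = 3.83e-04). The Kelly difference was larger than the largest spike-in shift of 1.42 on this scaling, but on values as deposited it was 0.58 (adjusted p = 0.0234), inside that shift, and the BE(2)C difference was 2.96. Both comparisons share the SH-SY5Y libraries. As background, limma called 59.4% of all tested genes between BE(2)C and SH-SY5Y and 55.3% between Kelly and SH-SY5Y, so a call alone does not set a gene apart here. GENCODE lists ANXA2 pseudogenes, and whether their reads were kept apart from ANXA2 was not tested.

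S100A10, the partner that joins ANXA2 in a heterotetramer and cannot bind calcium itself, was listed far below it. It was at 3.79, 2.83 and 1.49 in BE(2)C. It was listed at 0, 0 and 0.706 in Kelly and at 0 in all 3 SH-SY5Y libraries. All BE(2)C libraries were above all others. S100A10 reached the level needed for testing only through BE(2)C, so it had to differ there, and that difference is a description with no test. Kelly against SH-SY5Y did not pass (limma, adjusted p = 0.471), and no fold is given against a line listed at 0. Within BE(2)C the mean of ANXA2 was 67.9 ± 19.7 and that of S100A10 was 2.70 ± 1.15 (SD, n = 3). Levels of different genes are uncertain in this table, given the low values of HSPA8 and TUBB. For both partners, replicate 1 was the highest BE(2)C library and replicate 3 the lowest. The same order held in BE(2)C for S100A6, ANXA5, ACTB, GAPDH and EEF1A1, so it is not particular to the partners.

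The upstream sequences of the 3 genes that most set BE(2)C apart are shown because they were high together there. They are RefSeq sequences on GRCh38, from the minus strand, written 5′ to 3′, with motif letters in capitals. Of the 10 genes, 9 had an entry, with S100B unmatched. The 250 bases before each start were searched on both strands for the GC box GGGCGG, the AP-1 site TGANTCA, the MYC-type E-box CACGTG, the TATA box TATAAA and the CAAT box CCAAT. The S100A6 stretch (chr1:153536056-153536085) is cut to 30 bases, as this window is also transcribed in longer isoforms. Those of S100A11 (chr1:152037036-152037254) and ANXA2 (chr15:60398044-60398236) keep only bases outside annotated exons.
S100A6: gcgcGGGCGGgacttGGGCGGGCGGggtgg
S100A11: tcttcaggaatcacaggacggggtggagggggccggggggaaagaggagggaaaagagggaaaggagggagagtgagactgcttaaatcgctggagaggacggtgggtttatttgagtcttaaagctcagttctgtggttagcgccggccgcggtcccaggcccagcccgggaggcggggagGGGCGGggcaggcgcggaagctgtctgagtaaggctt
ANXA2: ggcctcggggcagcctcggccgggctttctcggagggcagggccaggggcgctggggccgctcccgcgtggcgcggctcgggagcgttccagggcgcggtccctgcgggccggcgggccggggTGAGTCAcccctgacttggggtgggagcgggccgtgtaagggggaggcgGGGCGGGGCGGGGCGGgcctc

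S100A6 and ANXA2 each held 3 GC boxes within 90 bases of the start, some of them overlapping, and S100A11 held 1 at 68 bases. A GC box occurs in 42.6% of 35116 promoter windows of the same length, and S100A10, S100A13 and ANXA5 had 1 each, so it does not separate the genes by level. ANXA2 also held an AP-1 site 127 bases upstream (6.57% of windows) and TATAAA at 31 bases (10.7% of windows), outside the stretch shown. The E-box CACGTG, the sequence bound by MYC proteins, was in none of the 9 windows, against 6.34% of all windows. These matches describe letters in 1 window per gene and say nothing about binding.

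The other S100 genes averaged under 10 scaled TPM in every line, except S100A13 in Kelly. S100A4 and S100B had the order BE(2)C, SH-SY5Y, Kelly by their means, and S100A13 and S100A16 the order Kelly, BE(2)C, SH-SY5Y. S100A4, a metastasis-associated protein that binds non-muscle myosin, was listed at 0 in all 3 Kelly libraries. It was at 1.99, 10.8 and 1.62 in BE(2)C and at 3.47, 2.36 and 2.80 in SH-SY5Y. BE(2)C replicate 2 alone was above SH-SY5Y, the other BE(2)C libraries were below it, and the lines did not differ beyond that spread (0.23 ± 0.49 on the log2 scale; limma, adjusted p = 0.702). Kelly was lower than SH-SY5Y (limma, adjusted p = 0.00789), with no fold given against values of 0. On values as deposited S100A4 did not reach the filter, and a listed 0 can be a failed estimate.

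S100A13, which takes part in the release of growth factors that lack a signal peptide, ran the other way and was highest in Kelly. It was at 13.7, 15.4 and 5.28 in Kelly, at 1.28, 1.76 and 3.97 in BE(2)C and at 1.40, 0.905 and 1.68 in SH-SY5Y. Every Kelly library was above every other library, and BE(2)C and SH-SY5Y overlapped. S100A13 was higher in Kelly than in SH-SY5Y by 2.32 ± 0.41 on the log2 scale (limma, adjusted p = 0.00107), more than the largest spike-in shift on this scaling. On values as deposited S100A13 did not reach the filter. BE(2)C and SH-SY5Y differed by 0.45 ± 0.41 (limma, adjusted p = 0.366). S100A13 lies at chr1:153618787-153631360 on the minus strand and overlaps S100A1 on the plus strand (chr1:153627926-153632039). The sources used here do not say how strand was handled, so reads of the shared stretch could belong to either gene. S100A1, a calcium sensor best known from muscle, was listed at 6.96, 2.29e-06 and 3.46 in Kelly and did not pass in any comparison (limma, adjusted p from 0.485 to 0.907). Without Kelly replicate 2, S100A1 was higher in Kelly than in SH-SY5Y (1.45, limma, adjusted p = 0.0200) and than in BE(2)C (1.35, adjusted p = 0.0285).

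S100B, a glial and melanocyte S100 protein, was listed at 0 in all 3 Kelly libraries. It was at 2.86, 1.75 and 6.90 in BE(2)C and at 0.825, 0.891 and 0.657 in SH-SY5Y. All BE(2)C libraries were above all SH-SY5Y libraries, with BE(2)C replicate 3 standing above the other 2. S100B too reached the tested level only through BE(2)C, and its BE(2)C difference is likewise given with no test, as a ratio of means of 4.85 to SH-SY5Y. Kelly against SH-SY5Y did not pass (limma, adjusted p = 0.0555). It passed with gene totals only (adjusted p = 0.0366), with a pseudocount of 0.1 (4.77e-04), and without BE(2)C replicate 2 (0.0236) or 3 (0.00353), which enter through the shared estimate of spread. The summed level of 7 other Schwann cell and melanocyte markers was 7.99 to 11.9 in BE(2)C, 5.13 to 8.52 in Kelly and 4.50 to 6.24 in SH-SY5Y. None of these 7 genes was at 0 in all libraries of BE(2)C, and the same held in Kelly, where S100B was at 0. In SH-SY5Y, FOXD3 was at 0 in every library. The part of these 7 genes in the S100B level was not tested. S100A16 stayed under the filter, at 0.740, 0.258 and 1.62 in Kelly, 0.993, 0.752 and 0.636 in BE(2)C and 0.220, 0 and 0.372 in SH-SY5Y.

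Of the other 2 annexins, ANXA5, which binds phosphatidylserine and is widely used to stain dying cells, was well above 0 in every library. It was at 72.6, 63.9 and 59.2 in BE(2)C, at 49.5, 55.0 and 65.1 in Kelly. In SH-SY5Y it was at 40.1, 32.5 and 32.3. BE(2)C and Kelly overlapped, and both lay above SH-SY5Y. The difference from SH-SY5Y was 0.88 ± 0.13 on the log2 scale for BE(2)C (limma, adjusted p = 3.36e-04) and 0.68 ± 0.13 for Kelly (limma, adjusted p = 0.00194). The Kelly difference was within the largest spike-in shift of 1.42. On values as deposited, ANXA5 no longer passed in either comparison (0.29, adjusted p = 0.151 for BE(2)C and -0.02, adjusted p = 0.933 for Kelly), where the median over all genes moved by -0.49 and -0.60. ANXA1, an annexin that restrains inflammatory signalling, was under the filter. It was listed at 0, 0.0737 and 0.258 in Kelly, at 0, 0.450 and 0.0925 in BE(2)C and at 0 in all SH-SY5Y libraries.

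Across all 10 genes, 4 averaged at least 10 scaled TPM in BE(2)C (S100A6, S100A11, ANXA2 and ANXA5), against 2 in Kelly (S100A13 and ANXA5) and 2 in SH-SY5Y (S100A6 and ANXA5). Between BE(2)C and SH-SY5Y, 7 genes were higher in every BE(2)C library, 0 were lower and 3 overlapped. These 7 include S100A6 and S100A11, chosen on their levels, and S100A10 and S100B, which passed the filter only through BE(2)C. They also include S100A16, which was under the filter. Ranges that do not overlap, in either direction, were also found for 66.1% of all tested genes there. Between Kelly and SH-SY5Y, 3 genes were higher without overlap, 3 lower and 4 overlapped (63.7% of all tested genes did not overlap). Between Kelly and BE(2)C, the contrast behind the choice of genes, 6 were lower in Kelly without overlap and S100A13 alone was higher (58.3% of all tested genes did not overlap, and limma called 52.5%). Nothing is read from any of these counts.

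The S100 genes of chromosome band 1q21 did not move as a block. The table holds 17 S100 genes there, from S100A10 at chr1:151982915-151994390 to S100A1. S100A11 starts 38.1 kb after the end of S100A10, and both were higher in every BE(2)C library than in the other lines. The BE(2)C mean of S100A11 was 146 against 2.70 for S100A10, though levels of different genes are uncertain here. S100A6 lies 1487 kb further on, at chr1:153534599-153536244. S100A4 starts 7.37 kb beyond it, with a BE(2)C mean of 4.81. Like S100A6, S100A4 was lowest in Kelly, but its BE(2)C and SH-SY5Y libraries overlapped. S100A13, which was higher in Kelly than in the other lines, starts 82.5 kb beyond S100A6. S100A8, S100A9 and S100A12, the calcium-binding proteins of myeloid cells, and S100A7 and S100A7L2 were listed at 0 in all 9 libraries. S100A3 had an overlapping gene model with S100A4 and was under the filter, with a highest value of 1.60 in BE(2)C. Of 28 tested genes in the same stretch of 1q21 that are not S100 genes, 5 were higher and 11 lower in BE(2)C than in SH-SY5Y (median -0.17 on the log2 scale, against -0.04 for all tested genes). All tested genes split into 28.6% higher and 30.7% lower. In Kelly against SH-SY5Y, 4 of the 28 were higher and 10 lower (28.1% and 27.2% of all genes). CELF3, a neuronal splicing factor, was lower in BE(2)C than in SH-SY5Y by -1.74 ± 0.08 (limma, adjusted p = 1.75e-07). THEM4, a thioesterase gene, was lower too (-1.98 ± 0.45, adjusted p = 0.00440). AQP10, an aquaporin gene, was higher in BE(2)C (2.01 ± 0.36; limma, adjusted p = 9.88e-04). OAZ3 was also higher (1.58 ± 0.59, limma, adjusted p = 0.0434). However, OAZ3 did not pass without any single Kelly library, BE(2)C replicate 1 or 2, or SH-SY5Y replicate 3 (adjusted p from 0.0570 to 0.135). Nor did it pass with a pseudocount of 0.1 (0.0514), no filter (0.0688), gene totals only (0.108) or values as deposited (0.119).

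**Figure D2:**
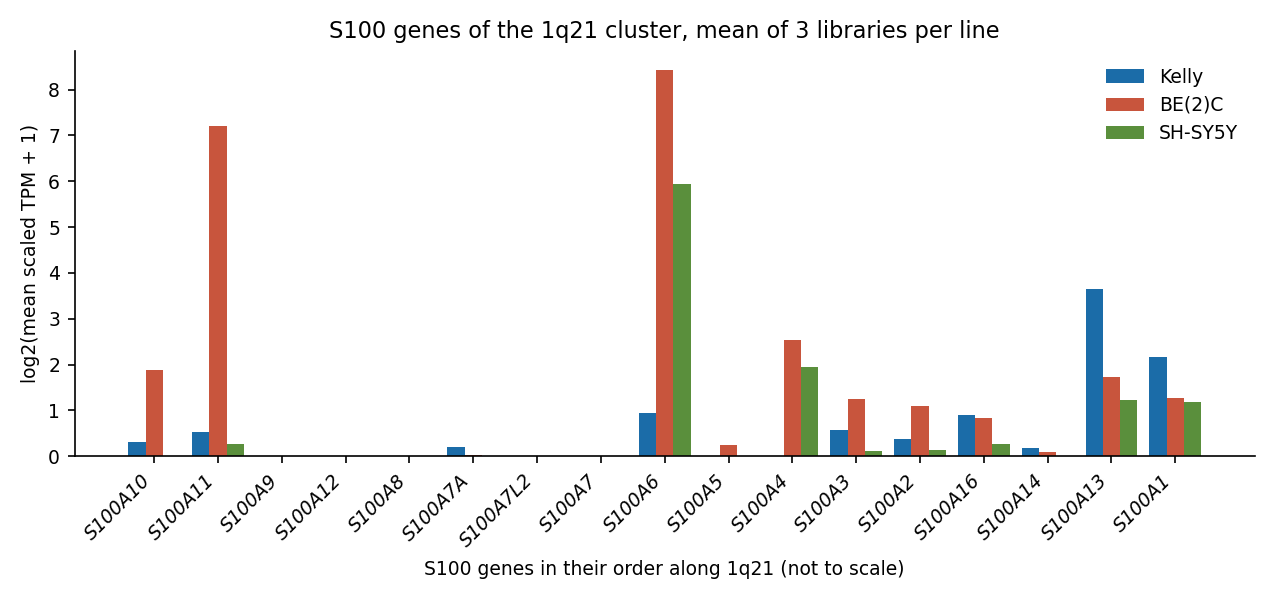
S100 genes in their order along 1q21 (horizontal axis, not to scale), with bars for log2(mean scaled TPM + 1) of 3 libraries in Kelly, BE(2)C and SH-SY5Y; the spread between libraries is given in the text. S100A11 and S100A6 tower over their neighbours in BE(2)C, S100A6 alone is high in SH-SY5Y, and S100A13 and S100A1 are highest in Kelly.

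The remaining annexins were compared with the 3 members by the same fit. ANXA6, a large annexin linked to membrane cholesterol, averaged 62.1 ± 4.31 in SH-SY5Y (SD, n = 3), below the 115 ± 9.05 of BE(2)C and the 124 ± 14.2 of Kelly. Like ANXA5, it was higher than SH-SY5Y in BE(2)C (0.87 ± 0.10; limma, adjusted p = 5.74e-05) and in Kelly (0.99 ± 0.10, adjusted p = 3.00e-05). ANXA7 was higher in BE(2)C (0.62 ± 0.12, adjusted p = 0.00150) and in Kelly (0.50 ± 0.12, adjusted p = 0.00592). On values as deposited neither gene passed in either comparison (adjusted p = 0.115 and 0.137 for ANXA6, 0.711 and 0.186 for ANXA7), and ANXA7 also did not pass in BE(2)C with gene totals only (adjusted p = 0.282). ANXA11, an annexin that tethers RNA granules to lysosomes, went apart from them, with 41.7 ± 4.26 in Kelly, 30.2 ± 2.88 in SH-SY5Y and 13.8 ± 2.55 in BE(2)C. It was lower in BE(2)C than in SH-SY5Y (-1.08 ± 0.15; limma, adjusted p = 1.83e-04) and higher in Kelly than in BE(2)C (1.53 ± 0.15, adjusted p = 2.64e-05). Its difference between Kelly and SH-SY5Y (0.45 ± 0.15, adjusted p = 0.0256) did not pass with gene totals only (0.159), on values as deposited (-0.21, adjusted p = 0.226), or without Kelly replicate 1 (0.0640) or 3 (0.0865) or SH-SY5Y replicate 2 (0.0503) or 3 (0.0917).

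ANXA4 was lower in BE(2)C, at 1.68, 2.66 and 0.676, than in SH-SY5Y, at 7.73, 10.6 and 13.4 (-2.16 ± 0.57; limma, adjusted p = 0.00950). Its Kelly libraries were spread widely, at 9.37, 0.808 and 4.45, and overlapped those of both other lines. Kelly did not differ from SH-SY5Y beyond that spread (-1.28 ± 0.57, adjusted p = 0.0861), but it was lower with gene totals only (adjusted p = 0.0491), on values as deposited (6.98e-04) and without Kelly replicate 1 (0.0160). ANXA9 was lower in BE(2)C than in SH-SY5Y (-0.80 ± 0.17, adjusted p = 0.00330), though not with quantile normalization (0.0776). In all, 2 of the 5 tested annexins outside the set were higher and 3 lower in BE(2)C, and 3 were higher and 0 lower in Kelly. ANXA8L1, ANXA10 and ANXA13 were listed at 0 in every library.

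**Figure D3:**
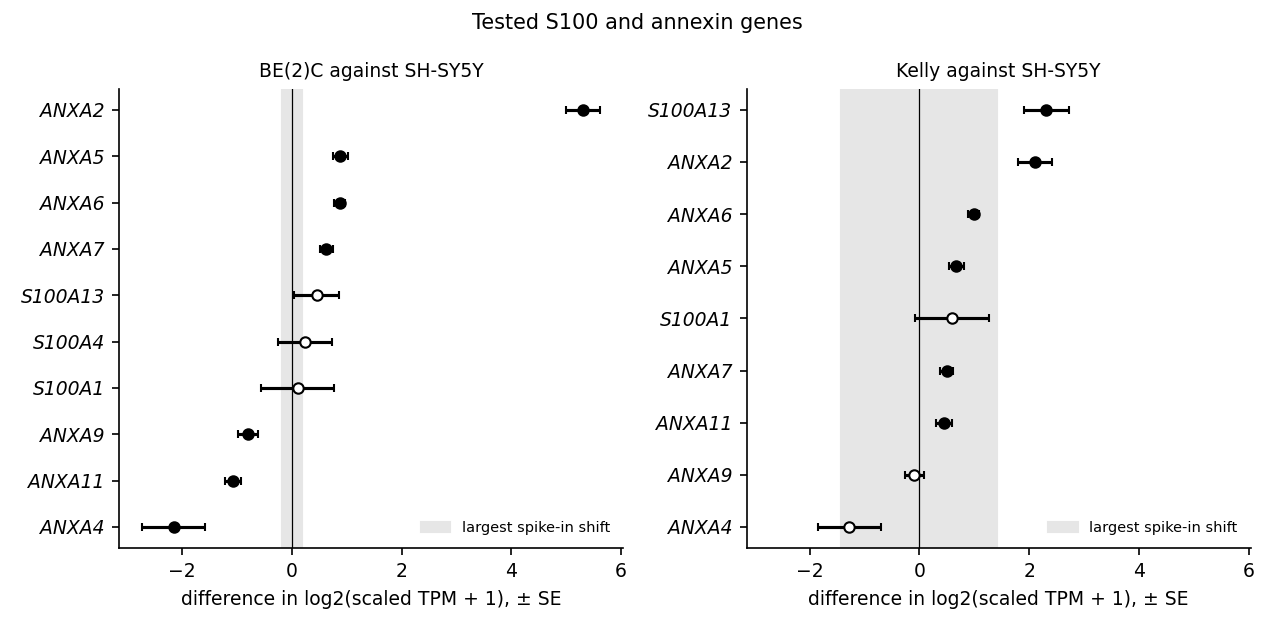
Differences from SH-SY5Y in log2(scaled TPM + 1) with their SE for BE(2)C (left) and Kelly (right), for tested S100 and annexin genes that are not at 0 in all libraries of either line. S100B, which reached the filter only through BE(2)C, is left out. Filled points passed limma's adjusted p of 0.05, and the grey band spans the largest spike-in shift, 0.181 on the left and 1.42 on the right; ANXA2 and S100A13 lie outside the band for Kelly, while ANXA5, ANXA6, ANXA7 and ANXA11 lie inside it.

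Genes whose products bind these proteins were also counted. Of 21 tested partners, 11 were higher and 2 lower in BE(2)C than in SH-SY5Y, with a median difference of 0.41 on the log2 scale against -0.04 for all tested genes, of which 28.6% were higher and 30.7% lower. With gene totals only the median of all genes moved by -0.44, which is as large as the median of the list. In Kelly 11 were higher and 3 lower than in SH-SY5Y (median 0.28; 28.1% and 27.2% of all tested genes). DLC1, a tumour suppressor that binds S100A10, averaged 3.07 ± 0.544 in SH-SY5Y, against 38.5 ± 7.19 in BE(2)C and 39.99 ± 5.44 in Kelly, a difference of 3.27 ± 0.18 and 3.33 ± 0.18 (limma, adjusted p = 5.00e-07 and 5.12e-07). ASIC1, an acid-sensing ion channel brought to the membrane by S100A10, was higher in BE(2)C (2.13 ± 0.11) and in Kelly (1.74 ± 0.11). SYT1, the synaptic vesicle calcium sensor that joins S100A13 in a release complex, exceeded its SH-SY5Y level in BE(2)C (2.37 ± 0.10) and was lower in Kelly than in BE(2)C (-2.32 ± 0.10; limma, adjusted p = 1.97e-07). In Kelly, where S100A13 was highest, SYT1 was at 40.3 ± 2.75, close to the 39.0 ± 4.50 of SH-SY5Y. HLTF, a chromatin factor that binds the S100A10 and ANXA2 complex, was highest in Kelly, at 122 ± 6.32 against 64.4 ± 7.78 in BE(2)C and 47.9 ± 2.72 in SH-SY5Y.

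Other EF-hand calcium sensors and buffers, most of them neuronal, were split. Of 33 tested, 9 were higher and 11 lower in BE(2)C than in SH-SY5Y, and 10 were higher and 12 lower in Kelly (medians -0.13 and -0.19). Over all tested genes these shares were 28.6% and 30.7%, and 28.1% and 27.2%, so that the list was near the background. TESC, a regulator of a sodium-proton exchanger, was at 48.5 ± 12.7 in Kelly, 0.687 ± 0.666 in SH-SY5Y and listed at 0, 0.0892 and 0 in BE(2)C. HPCA, hippocalcin, was also highest in Kelly, at 24.8, 17.25 and 20.97 against a mean of 0.491 ± 0.482 in SH-SY5Y and 0.535 ± 0.315 in BE(2)C. TESC and HPCA reached the tested level only through Kelly, so they had to differ there. Their levels are given with no test, though both stay in the counts above. VSNL1, a visinin-like sensor of neurons, was at 19.7 ± 3.73 in Kelly and 11.96 ± 1.68 in SH-SY5Y but 0.387 ± 0.182 in BE(2)C (BE(2)C against SH-SY5Y, -3.22 ± 0.20; limma, adjusted p = 1.13e-06). All 3 were near 0 in BE(2)C, the line with the highest S100A6 and S100A11, but TESC and HPCA were near 0 in SH-SY5Y as well. CABP1 and KCNIP4 were highest in BE(2)C, with differences from SH-SY5Y of 2.22 ± 0.18 and 3.65 ± 0.38 (limma, adjusted p = 7.59e-06 and 3.22e-05).

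Among 23 tested mesenchymal or cytoskeletal genes, 12 were higher and 6 lower in BE(2)C than in SH-SY5Y (median 0.64; 28.6% and 30.7% of all tested genes), and 11 were higher and 8 lower in Kelly (median 0.01; 28.1% and 27.2% of all tested genes). Between Kelly and BE(2)C, 6 were higher and 10 lower in Kelly (27.9% and 24.6% of all genes), with a median of -0.26. LGALS1, the secreted lectin galectin-1, was at 846, 756 and 618 in BE(2)C. It was at 176, 172 and 168 in SH-SY5Y, and at 24.4, 11.4 and 21.8 in Kelly. The 3 lines did not overlap and had the order of S100A6. LGALS1 was lower in Kelly than in BE(2)C by -5.25 ± 0.24 on the log2 scale (limma, adjusted p = 3.09e-07). VIM, the intermediate filament vimentin, had the same order of lines, with 191 ± 31.1 in BE(2)C, 59.0 ± 2.82 in SH-SY5Y and 28.4 ± 2.81 in Kelly. CD44, a hyaluronan receptor of mesenchymal cells, did not follow it. Its mean was 10.96 ± 1.38 in Kelly, against 3.46 ± 0.836 in BE(2)C and only 0.419 ± 0.177 in SH-SY5Y. Nor did TIMP1, FOSL2 and SPARC of the same list have the order of S100A6. TIMP1 was highest in BE(2)C (mean 111), but its Kelly mean of 35.6 was above the 21.5 of SH-SY5Y. FOSL2 had its highest mean in Kelly, at 65.1, above a BE(2)C mean of 46.8, and SH-SY5Y was lowest at 13.9. SPARC too was higher in Kelly (mean 151) than in SH-SY5Y (mean 32.1). The summed level of 5 fibroblast markers was 52.4 to 93.8 in BE(2)C, 61.8 to 69.0 in SH-SY5Y and 45.01 to 54.3 in Kelly, where COL1A2 was at 0. PDGFRB made up most of this sum, at 39.6 to 61.2 in all 9 libraries. DCN was at 5.63, 16.6 and 14.6 in BE(2)C and at 1.41, 0.910 and 0.395 in Kelly, and LUM was at 6.51, 9.62 and 7.52 in BE(2)C and at 0.137, 0.0425 and 0 in Kelly, so both moved with the members. Their part in these levels was not tested.

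**Figure D4:**
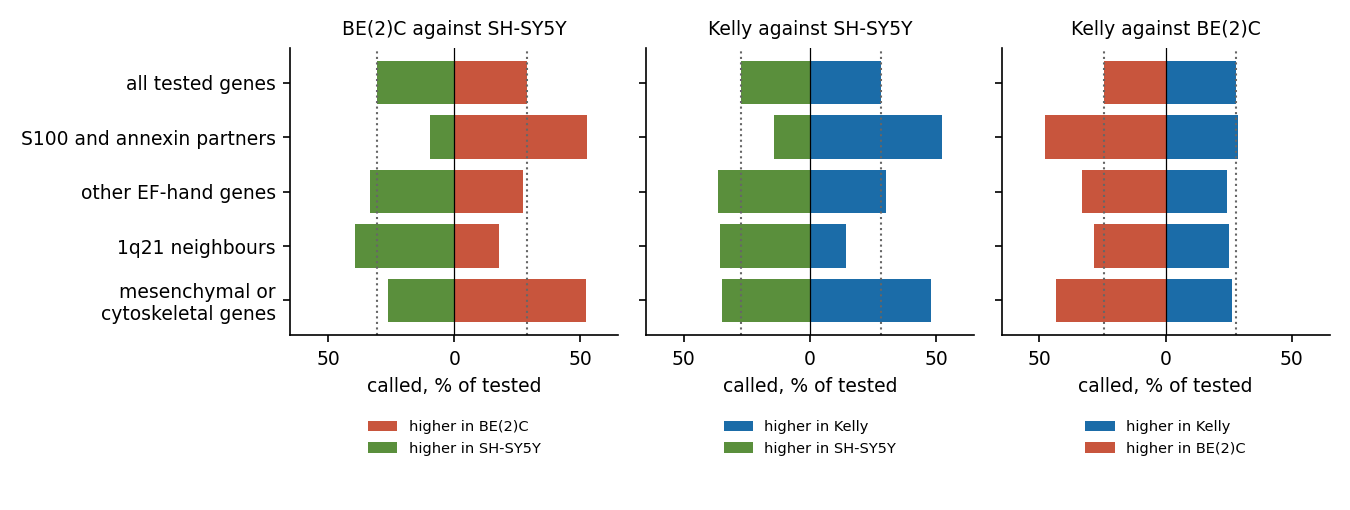
Share of tested genes called by limma in each list, with bars to the right for genes higher in the first line of each comparison and bars to the left for genes higher in the second; dotted lines mark the shares over all 13076 tested genes. Of 21 tested S100 and annexin partners, 11 were called higher than in SH-SY5Y in each amplified line, and other EF-hand genes lie near the dotted lines. Values as deposited moved the median of all genes by -0.49 in BE(2)C and -0.60 in Kelly. These shifts are larger in size than the partner medians of 0.41 and 0.28, so no lean is read.

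The genes most like S100A6 over the 9 libraries were found by Pearson's r of log2(scaled TPM + 1) among 9770 other genes with a mean of at least 10 in some line. They were EFNB2, an ephrin ligand (r = 0.998), WARS, the tryptophanyl-tRNA synthetase (0.998), ENPP2, the enzyme autotaxin (0.997), RCOR1 (0.997) and ERP44 (0.996). EFNB2 was at 94.7 ± 8.87 in BE(2)C, 47.3 ± 1.16 in SH-SY5Y and 13.2 ± 0.624 in Kelly, a narrower span than that of S100A6. ENPP2 was listed at 0 in all 3 Kelly libraries, against 15.9 ± 0.940 in SH-SY5Y and 58.3 ± 9.91 in BE(2)C.

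For S100A11 the genes most alike included CDKN2A, a cell cycle inhibitor gene (r = 0.998), CRYGD, a lens crystallin gene (0.996), LRFN4 (0.996) and TDRD1 (0.996). CDKN2A averaged 3.67 ± 0.305 in SH-SY5Y and 4.64 ± 0.447 in Kelly, against 117 ± 8.53 in BE(2)C. CRYGD was listed at 0 in every Kelly and SH-SY5Y library. With only 3 lines, such an r mostly compares 3 levels, and many genes can share them. Among the members, S100A11 was most like S100A10 (r = 0.931) and ANXA2 (0.917), and S100A6 most like S100B (0.868). S100A6 and S100A11 were chosen as high in BE(2)C, and S100A10 and S100B passed the filter only through that line. The likeness of S100A10 and S100B to them was thus partly fixed in advance, and nothing is read from it. S100A13 ran against S100A6 (-0.807). These values describe 9 libraries that share their lines.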

How the data were processed

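Values were deposited by the authors as log10 values, which the sums of the back-transformed columns show to be log10(TPM + 1). Per the submitters' processing notes, the tools were HISAT 0.1.6 and Salmon 0.3.2 with build GRCh38, and their roles are not recorded. Of 19837 entries, 92 spike-ins and 11 reporter or selection entries were removed before TPM was rescaled, and 28 date-like names stayed in totals only. Unweighted trimmed-mean factors, leaving out the outer 30% by log ratio and the outer 5% by log level on both sides, ran from 0.758 to 1.17. Genes reaching 1 in 3 or more libraries were tested with limma 3.58.1 (trend method, log2(scaled TPM + 1), all 9 libraries, no block, two-sided, Benjamini-Hochberg adjusted p under 0.05), after testing on simulated data. A fold on that scale understates changes of low genes. All value columns were used. Members and lists (other S100 genes and annexins, partners, EF-hand genes, 1q21 neighbours, mesenchymal genes, cell type markers) were chosen with earlier results of these data known. Members, MYCN and every other tested S100 or annexin gene could be named, plus up to 4 called genes per list and comparison with a mean of at least 10 in the higher line, and 5 similar genes each for S100A6 and S100A11. Of these similar genes, 1 is not reported here. EF-hand and other genes beyond these were counted only. The genes checked for low values, ANXA2R and S100PBP were chosen after values were seen. Coordinates are from GENCODE release 29 and upstream sequences from RefSeq (GRCh38). Alternatives were another pseudocount, no filter, 3 scalings, a replicate block and leaving out each library.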

Additional observations from a re-analysis of the deposited data

How the results depend on the processing

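Scaling moved the balance of calls most. The higher and lower counts over all genes in BE(2)C against SH-SY5Y were 3744 and 4020, but 1895 and 6121 with gene totals only, and 1249 genes were higher on values as deposited. Calls that were higher thus made up 48.2%, 23.6% and 18.2%. In Kelly against SH-SY5Y they were 3673 and 3557, and 886 and 6461 as deposited (50.8% and 12.1% higher). In Kelly against BE(2)C they were 3647 and 3214, with 1999 higher as deposited and 1790 lower with gene totals only (53.2%, 40.1% and 74.3% higher). Of 6 members other than S100A6 and S100A11 that passed the filter, 4 were higher in BE(2)C (28.6% of all tested genes) and 3 in Kelly (28.1%), but 1 in each as deposited, where fewer genes passed the filter (10279). S100A10 and S100B are among the 4 and had to differ, so the count supports nothing. The member count lower in Kelly was 1, but 2 with a pseudocount of 0.1 or gene totals only, 0 as deposited, and 1 to 2 when a library was left out. On values as deposited ANXA5 (-0.0172), ANXA7 (-0.19) and ANXA11 (-0.21) changed sign in Kelly against SH-SY5Y. MYCN between Kelly and BE(2)C, not called in the main analysis, was higher in Kelly with gene totals only (0.32; limma, adjusted p = 0.0240) and after quantile normalization (0.65, limma's adjusted p = 0.00138). The cause was not tested. Same-numbered libraries did not deviate together (r from -0.0545 to 0.0266 over 9 pairs), and with the replicate number as a block all 81 tested results for named genes kept their direction and their side of the threshold, with 4 members higher in BE(2)C and 3 in Kelly as before. Without the 3 Kelly libraries, an alternative chosen after seeing the data, the count of members above SH-SY5Y in BE(2)C was again 4. Depth is unknown, and members listed at or near 0 have no floor.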

Other observations

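A pair of related genes outside the lists was picked after values were seen and is given with no test. ANXA2R, named as a receptor for annexin A2, was at 6.52, 6.74 and 6.09 scaled TPM in BE(2)C, at 0.111, 0.286 and 0.123 in SH-SY5Y and at 0, 0 and 0.727 in Kelly, so that its BE(2)C libraries stood above all others, as those of ANXA2 and S100A10 did. S100PBP, which encodes a protein that binds S100P, was lowest in BE(2)C, at 14.3, 14.3 and 12.4. It was at 30.3, 31.4 and 30.6 in SH-SY5Y and at 26.2, 19.1 and 20.2 in Kelly, with no overlap between lines.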
